A study of Mus musculus with 227 samples.

Results

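Matrix proteases and their TIMP inhibitors, 10 genes in all, were followed across 4 cell populations of the newborn mouse skeleton. The set comprised 7 proteases, which were the matrix metalloproteinases Mmp2, Mmp3 and Mmp14 and the ADAMTS enzymes (a disintegrin and metalloproteinase with thrombospondin motifs) Adamts1, Adamts2, Adamts3 and Adamts5, and 3 tissue inhibitors of metalloproteinases, Timp1, Timp2 and Timp3. These genes were listed by name, with earlier results of these data known, and all 10 were found among the 24388 genes of the expression table. Single cells came from long bones of BL6 mice on postnatal day 3, were sorted by flow cytometry in a double sort, captured on a microfluidic chip and sequenced as 1 library per cell. All gates required CD45-, Ter-119- and AlphaV+ staining; cells labelled 6C3+ were further Thy-6C3+CD105+, those labelled THY+ were Thy+6C3-CD105+, those labelled CSP were Thy-6C3-CD105+, and those labelled mSSC, the mouse skeletal stem cell, were Thy-6C3-CD105-CD200+. Tie2- was part of every gate except that of 6C3+. The labels name no transgene or treatment for any group, and neither animals nor cultures. Each population is therefore treated as a single sample, and no p-value was computed over cells.

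Values are FPKM, fragments normalized by transcript length and by the mapped total, which allow levels to be set side by side between genes because they are per length. The 125 cells with at least 1000 genes at an FPKM of at least 1 were used, namely 34 6C3+, 43 THY+, 11 CSP and 37 mSSC cells of 92, 72, 26 and 37. A gene is called detected in a cell at an FPKM of at least 1, and percentages carry exact Clopper-Pearson 95% intervals that cover counting error only. Median numbers of detected genes were alike, from 2534 in mSSC to 3033 in CSP. The summed FPKM of genes was not, with a median of 366748 in 6C3+ against 906237 in mSSC cells, and spike-ins took a median of 18.9% and 20.8% of FPKM in 6C3+ and THY+ cells but 0.000945% and 0.00117% in CSP and mSSC cells. CSP and mSSC cells share an index plate while THY+ and 6C3+ cells each have their own, so for these the plate and the population cannot be told apart. Whether cell barcodes were shared between populations was not tested. Among transcripts of sort antigens, 9 of 43 THY+ cells had Thy1, as did 0 of the other cells, and 9 of 34 6C3+ cells, 3 of 43 THY+ cells and 0 CSP or mSSC cells had Enpep, the gene of 6C3. Cd200, whose product is a positive gate of mSSC, was present in 9 of 11 CSP cells against 8 of 37 mSSC cells. Eng, the gene of CD105, was detected in 3 of 34 6C3+, 10 of 43 THY+ and 0 of 11 CSP cells, which were gated CD105+, and in 8 of 37 mSSC cells, which were gated CD105-. Markers of other lineages were scarce: 6 of 8 myeloid and 5 of 6 osteoclast genes were detected in 0 of the 125 cells, and the median summed FPKM of the myeloid, osteoclast and endothelial lists was 0 in every population. The highest summed FPKM in any cell was 85.1 for the myeloid, 43.9 for the osteoclast and 787.9 for the endothelial list, the last in a THY+ cell; Esam, an endothelial list gene, was detected in 15 of 43 THY+ cells.

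Matrix metalloproteinases and ADAMTS enzymes are zinc proteases that cut collagens, proteoglycans and the precursors of other secreted proteins, and TIMPs block them by binding the active site. Mmp14 is a membrane-anchored protease that cuts fibrillar collagen and activates the zymogen of Mmp2, a gelatinase, at the cell surface, with Timp2 acting as the bridge between the pair. Adamts2 and Adamts3 remove the amino-terminal propeptide of fibrillar procollagens. Adamts1 and Adamts5 cut the large proteoglycans aggrecan and versican, and Timp3, which is held in the matrix, inhibits both ADAMTS and MMP enzymes. Growing cartilage and the bone that replaces it depend on this remodelling.

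The 4 members whose mean level differed by at least 4-fold between THY+ and mSSC cells are shown by their promoters, since these genes separate the populations in opposite directions; among all genes counted in that comparison 1.7% were that much higher and 2.71% that much lower in THY+ cells. The sequences are from RefSeq (GRCm38.p6) and run 5′ to 3′ on the gene's own strand from 250 bases before to 50 bases after its start. Capitals mark GC boxes, GGGCGG on either strand. Mmp14 (chr14:54431348-54431647, plus strand) and Adamts2 (chr11:50601835-50602134, plus strand) were higher in THY+ cells, and Adamts3 (chr5:89883285-89883584, minus strand) and Timp1 (chrX:20869916-20870215, plus strand) were lower.
Mmp14: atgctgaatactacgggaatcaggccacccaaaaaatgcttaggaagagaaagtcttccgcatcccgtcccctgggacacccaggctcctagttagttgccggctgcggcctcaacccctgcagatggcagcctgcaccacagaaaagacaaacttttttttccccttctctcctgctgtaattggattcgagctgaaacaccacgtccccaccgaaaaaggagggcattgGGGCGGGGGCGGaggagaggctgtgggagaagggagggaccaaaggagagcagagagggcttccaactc
Adamts2: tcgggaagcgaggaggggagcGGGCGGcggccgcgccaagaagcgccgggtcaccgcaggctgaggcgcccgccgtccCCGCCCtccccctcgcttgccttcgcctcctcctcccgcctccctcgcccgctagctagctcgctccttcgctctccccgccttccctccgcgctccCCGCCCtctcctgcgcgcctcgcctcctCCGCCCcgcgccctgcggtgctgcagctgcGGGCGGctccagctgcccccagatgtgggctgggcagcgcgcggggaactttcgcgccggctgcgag
Adamts3: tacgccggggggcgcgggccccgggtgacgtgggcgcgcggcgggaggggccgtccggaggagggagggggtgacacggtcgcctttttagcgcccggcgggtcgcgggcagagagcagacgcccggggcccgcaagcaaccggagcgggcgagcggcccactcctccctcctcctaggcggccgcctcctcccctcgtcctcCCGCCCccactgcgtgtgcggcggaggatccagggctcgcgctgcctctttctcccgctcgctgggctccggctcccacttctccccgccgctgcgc
Timp1: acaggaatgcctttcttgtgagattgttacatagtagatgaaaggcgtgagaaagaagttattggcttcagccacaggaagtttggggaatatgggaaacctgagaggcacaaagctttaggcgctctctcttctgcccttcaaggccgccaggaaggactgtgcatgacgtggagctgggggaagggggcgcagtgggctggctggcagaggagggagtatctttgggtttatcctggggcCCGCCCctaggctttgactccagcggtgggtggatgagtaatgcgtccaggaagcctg
GC boxes numbered 5 in Adamts2, 2 in Mmp14, and 1 each in Adamts3 and Timp1, and those of Mmp14 abut one another just upstream of the start. No match overlapped another, and none of these 4 windows held TATAAA or TGANTCA, the letters of the AP-1 motif, on either strand. GGGCGG was present in 35.7%, TATAAA in 13.6% and TGANTCA in 7.81% of 32851 promoter windows of the same length. Promoters were found for 8 of the 10 members. The window of Mmp3 held 1 TATAAA and 1 TGANTCA and no GC box, and that of Adamts1 held 1 TATAAA and 3 GC boxes. A match describes these letters and is not a binding site.

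Over the 125 cells together Mmp2 (80.8%), Timp2 (76%) and Timp3 (71.2%) were the most widely detected members, and Mmp3 was almost absent. The order differed between populations. Detection in at least 50% of cells was reached by 5 members in 6C3+ (Mmp2, Mmp14 and the 3 TIMPs), 4 in THY+ (Mmp2, Mmp14, Timp2 and Timp3), 5 in CSP (Mmp2, Adamts1, Adamts3, Timp1 and Timp2) and 5 in mSSC (Mmp2, Adamts3 and the 3 TIMPs). Mmp2 and Timp2 are the members common to all 4 of these sets.

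**Figure D1:**
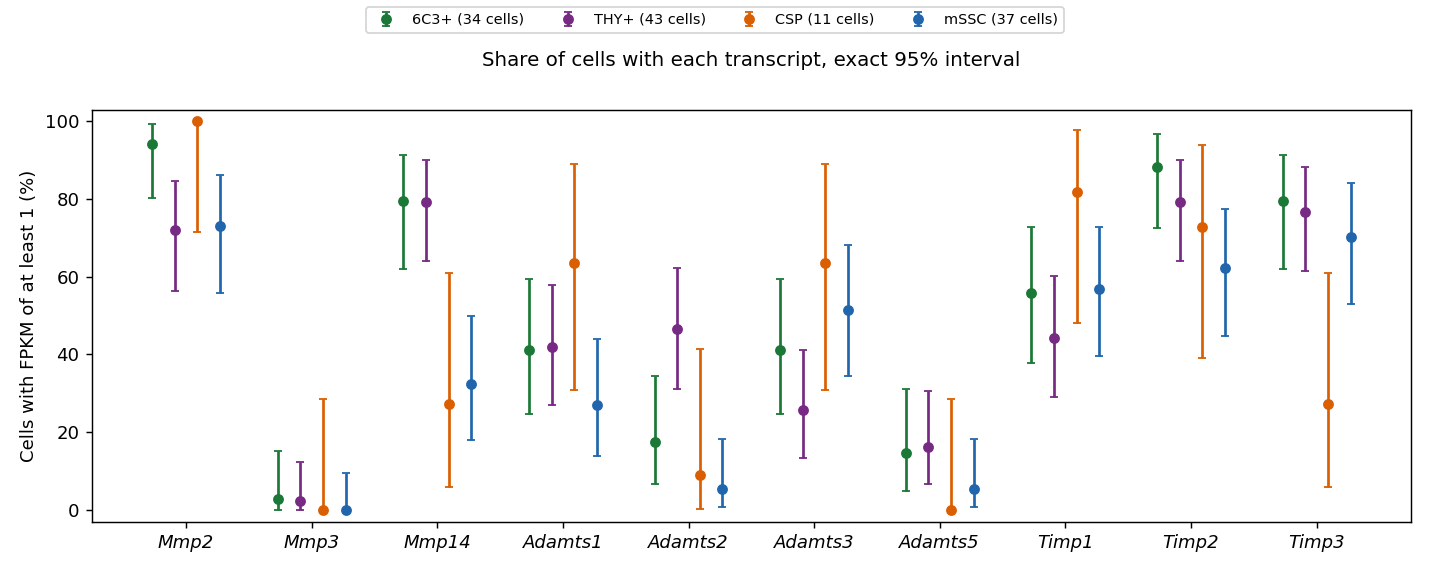
Share of cells (vertical axis, percent) with an FPKM of at least 1 for each of the 10 genes in 6C3+ (34 cells), THY+ (43), CSP (11) and mSSC (37). Points are shares and bars exact Clopper-Pearson 95% intervals; Mmp14 lies near 79% in 6C3+ and THY+ cells, at 79.4% and 79.1%, against 27.3% in CSP and 32.4% in mSSC cells.

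By share of cells, Mmp14 was the member that divided the populations most plainly. Mmp14 (chromosome 14, 54431612 to 54445364, plus strand) was detected in 27 of 34 6C3+ cells (79.4%, 62.1 to 91.3), 34 of 43 THY+ cells (79.1%, 64 to 90), 3 of 11 CSP cells (27.3%, 6.02 to 61) and 12 of 37 mSSC cells (32.4%, 18 to 49.8). Its FPKM ran from 0 to a highest value of 419.7 with a median of 23.4 in 6C3+, to 1338 with a median of 69.7 in THY+, to 211.2 with a median of 0 in CSP and to 670.1 with a median of 0 in mSSC cells. The 6C3+ and THY+ cells were therefore mostly positive and the CSP and mSSC cells mostly at 0, although single mSSC cells reached the levels of the upper THY+ cells. In the order of shares, the step between THY+ and mSSC was the only one, over all members, at which the intervals of neighbouring populations did not overlap.

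Mmp2 (chromosome 8, 92827291 to 92853420, plus strand), the enzyme that Mmp14 activates, was detected in most cells of every population. It was found in 32 of 34 6C3+ cells (94.1%, 80.3 to 99.3), 31 of 43 THY+ cells (72.1%, 56.3 to 84.7), 11 of 11 CSP cells (100%, 71.5 to 100) and 27 of 37 mSSC cells (73%, 55.9 to 86.2). The lowest, median and highest FPKM were 0, 153.7 and 1157 in 6C3+, 0, 79.8 and 2809 in THY+, 2.53, 55.2 and 624.8 in CSP, and 0, 108.0 and 1265 in mSSC cells. The ranges overlapped throughout, and only CSP had no cell at 0. Timp2 (chromosome 11, 118301069 to 118355740, minus strand) was detected in 30 of 34 6C3+ cells (88.2%, 72.5 to 96.7), 34 of 43 THY+ cells (79.1%, 64 to 90), 8 of 11 CSP cells (72.7%, 39 to 94) and 23 of 37 mSSC cells (62.2%, 44.8 to 77.5). Its median FPKM was 86.5 in 6C3+, 57.4 in THY+, 17.1 in CSP and 11.6 in mSSC cells, with highest values of 559.1, 2310, 480.9 and 1767 in the same order. The shares and the medians of Timp2 thus had the same order, with overlapping intervals between neighbours.

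All 3 parts of the Mmp2 activation complex, Mmp14, Mmp2 and Timp2, were detected together in 22 of 34 6C3+ cells (64.7%, 46.5 to 80.3) and 21 of 43 THY+ cells (48.8%, 33.3 to 64.5), against 2 of 11 CSP cells (18.2%, 2.28 to 51.8) and 7 of 37 mSSC cells (18.9%, 7.96 to 35.2). Mmp2 and Timp2 without Mmp14 were seen in 6 of 34 6C3+, 4 of 43 THY+, 6 of 11 CSP and 9 of 37 mSSC cells. In CSP cells Mmp2 and Timp2 were thus usually present and Mmp14 was usually not detected. Other proteases that may activate Mmp2 were not part of this count. Whether the joint shares differ from what the single shares alone would give was not tested.

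Of the procollagen processing enzymes, Adamts2 was detected most often in THY+ cells and Adamts3 in CSP and mSSC cells. Adamts2 (chromosome 11, 50602084 to 50807573, plus strand), which processes procollagens I and III, was detected in 6 of 34 6C3+ cells (17.6%, 6.76 to 34.5), 20 of 43 THY+ cells (46.5%, 31.2 to 62.3), 1 of 11 CSP cells (9.09%, 0.23 to 41.3) and 2 of 37 mSSC cells (5.41%, 0.661 to 18.2). Its highest FPKM was 1268 in THY+ cells, against 19.5 in 6C3+, 23.3 in CSP and 23.1 in mSSC cells. Its median FPKM was 0.735 in THY+ and 0 in each of the other populations, so the high values were held by a minority of THY+ cells. Adamts3 (chromosome 5, 89677087 to 89883334, minus strand), which processes procollagen II, ran the other way. It was detected in 14 of 34 6C3+ cells (41.2%, 24.6 to 59.3), 11 of 43 THY+ cells (25.6%, 13.5 to 41.2), 7 of 11 CSP cells (63.6%, 30.8 to 89.1) and 19 of 37 mSSC cells (51.4%, 34.4 to 68.1). Its median FPKM was 0 in 6C3+ and THY+, 131.6 in CSP and 1.04 in mSSC cells, and its highest was 454.5, 898.3, 743.0 and 2721 in the same order. The medians among cells with Adamts3 were 74.2, 181.1, 274.0 and 322.5 FPKM. The lowest detected values were 1.89, 2.37, 122.7 and 1.04, so only CSP had no detection near the threshold.

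Adamts2 alone was detected in 2 of 34 6C3+, 17 of 43 THY+, 1 of 11 CSP and 2 of 37 mSSC cells, and Adamts3 alone in 10 of 34, 8 of 43, 7 of 11 and 19 of 37 cells. Both together were seen in 4 of 34 6C3+ and 3 of 43 THY+ cells and in 0 of 11 CSP and 0 of 37 mSSC cells, which allows up to 28.5% and 9.49%. Here too a departure from what the single shares would give was not tested. The collagens they process also differed between populations. Col1a1 had a median FPKM of 2663 in 6C3+, 4966 in THY+, 0 in CSP and 3.29 in mSSC cells, whereas Col2a1 had medians of 938.5, 7.66, 22906 and 22488. Each of the Adamts2-positive cells, which numbered 6 of 6, 20 of 20, 1 of 1 and 2 of 2, also had Col1a1 and Col3a1. In THY+ cells that adds little, since Col1a1 was detected in 42 of 43 of them; in CSP cells Col1a1 was detected in 1 of 11, the cell with Adamts2. Col2a1 was detected in 13 of 14 6C3+, 9 of 11 THY+, 7 of 7 CSP and 19 of 19 mSSC cells with Adamts3, and in 27 of 34, 30 of 43, 10 of 11 and 35 of 37 cells overall.

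**Figure D2:**
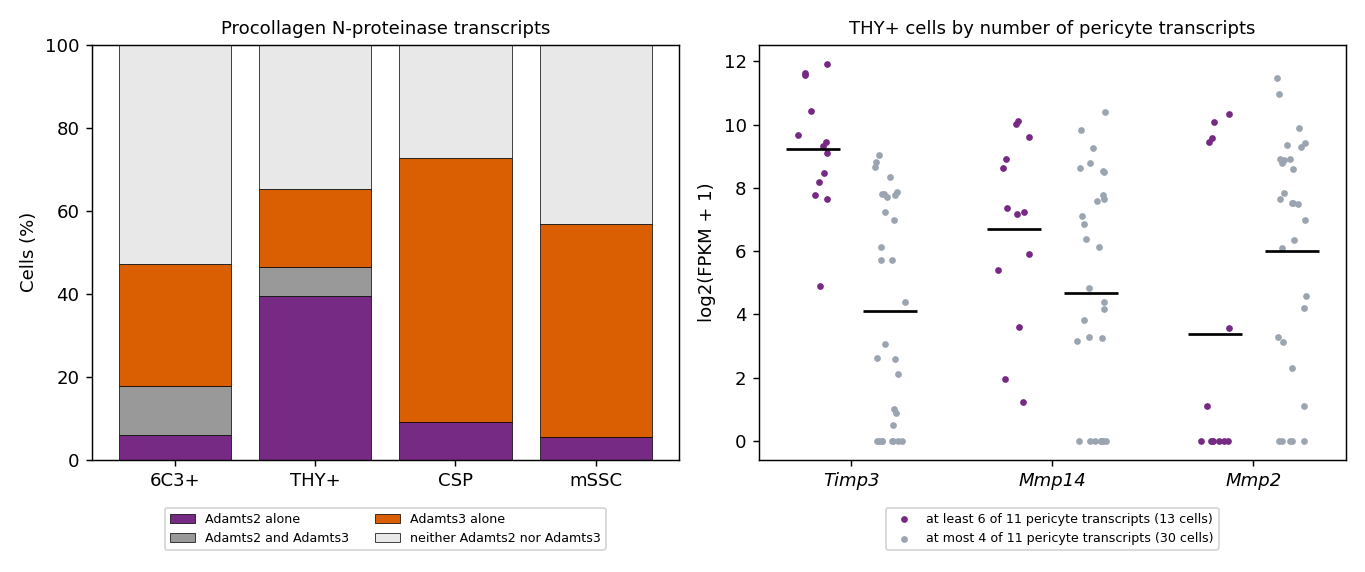
Left, share of cells (vertical axis, percent) in each population with Adamts2 alone, both Adamts2 and Adamts3, Adamts3 alone or neither at an FPKM of at least 1; Adamts2 alone takes 39.5% of THY+ and 5.41% of mSSC cells, Adamts3 alone 18.6% and 51.4%. Right, log2(FPKM + 1) of Timp3, Mmp14 and Mmp2 in each THY+ cell (points), with the mean as a line, in the 13 cells with at least 6 and the 30 cells with at most 4 of 11 pericyte transcripts; the means for Timp3 are 9.24 and 4.09.

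Among the inhibitors, Timp3 was found in most 6C3+, THY+ and mSSC cells but in few CSP cells, and the median of Timp1 was highest in CSP cells. Timp3 (chromosome 10, 86300372 to 86349506, plus strand) was detected in 27 of 34 6C3+ cells (79.4%, 62.1 to 91.3), 33 of 43 THY+ cells (76.7%, 61.4 to 88.2), 3 of 11 CSP cells (27.3%, 6.02 to 61) and 26 of 37 mSSC cells (70.3%, 53 to 84.1). Its lowest FPKM was 0 in each, its median 15.3 in 6C3+, 148.4 in THY+, 0 in CSP and 78.9 in mSSC cells, and its highest 111.7, 3901, 230.4 and 917.9. Among cells with the transcript the medians were 29.4 in 6C3+, 223.1 in THY+, 166.6 in CSP and 264.5 in mSSC cells. So 6C3+ cells carried Timp3 about as often as THY+ and mSSC cells but at a lower FPKM, and no 6C3+ cell exceeded 111.7; after each cell was rescaled to the same total over genes the medians over all cells were 56.2, 133.5, 0 and 75.5. Timp3 shares 1733 of its 8144 exon bases with Syn3 on the opposite strand, and whether counting used strand is not given in the sources used here, but Syn3 was detected in 3 of 125 cells. Timp1 (chromosome X, 20870166 to 20874735, plus strand), a general MMP inhibitor that acts weakly on Mmp14, was detected in 19 of 34 6C3+ cells (55.9%, 37.9 to 72.8), 19 of 43 THY+ cells (44.2%, 29.1 to 60.1), 9 of 11 CSP cells (81.8%, 48.2 to 97.7) and 21 of 37 mSSC cells (56.8%, 39.5 to 72.9). Its median FPKM was 30.3 in 6C3+, 0 in THY+, 771.9 in CSP and 90.8 in mSSC cells, and the highest values were 1217, 1235, 2134 and 2724. The ranges overlapped and each population had cells at 0. Timp1 lies within the span of Syn1 on the opposite strand, with 0 shared exon bases, and Syn1 was detected in 2 of 125 cells.

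The proteoglycan-cutting members were less frequent. Adamts1 (chromosome 16, 85793827 to 85803113, minus strand) was detected in 14 of 34 6C3+ cells (41.2%, 24.6 to 59.3), 18 of 43 THY+ cells (41.9%, 27 to 57.9), 7 of 11 CSP cells (63.6%, 30.8 to 89.1) and 10 of 37 mSSC cells (27%, 13.8 to 44.1). Its median FPKM was 6.81 in CSP and 0 in the other populations, and its highest values were 961.3 in 6C3+, 1538 in THY+, 175.7 in CSP and 1491 in mSSC cells. All 4 intervals overlapped. Adamts5 (chromosome 16, 85856173 to 85901828, minus strand), the main aggrecan-cutting enzyme of mouse cartilage in joint disease, was detected in 5 of 34 6C3+, 7 of 43 THY+, 0 of 11 CSP and 2 of 37 mSSC cells, with highest values of 69.7, 55.2, 0 and 221.5 FPKM. The 0 of 11 CSP cells allow a share of up to 28.5%. Mmp3 (chromosome 9, 7445822 to 7455975, plus strand), stromelysin, was detected in 1 of 34 6C3+ cells at 27.4 FPKM, in 1 of 43 THY+ cells at 271.2 FPKM, and in 0 of 11 CSP and 0 of 37 mSSC cells, which allows up to 28.5% and 9.49%. Of the proteoglycan substrates, Acan had a median FPKM of 30.3 in 6C3+, 10.9 in THY+, 518.1 in CSP and 314.7 in mSSC cells. Vcan, which encodes versican, was detected in 22 of 34 6C3+, 34 of 43 THY+, 0 of 11 CSP and 7 of 37 mSSC cells.

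**Figure D3:**
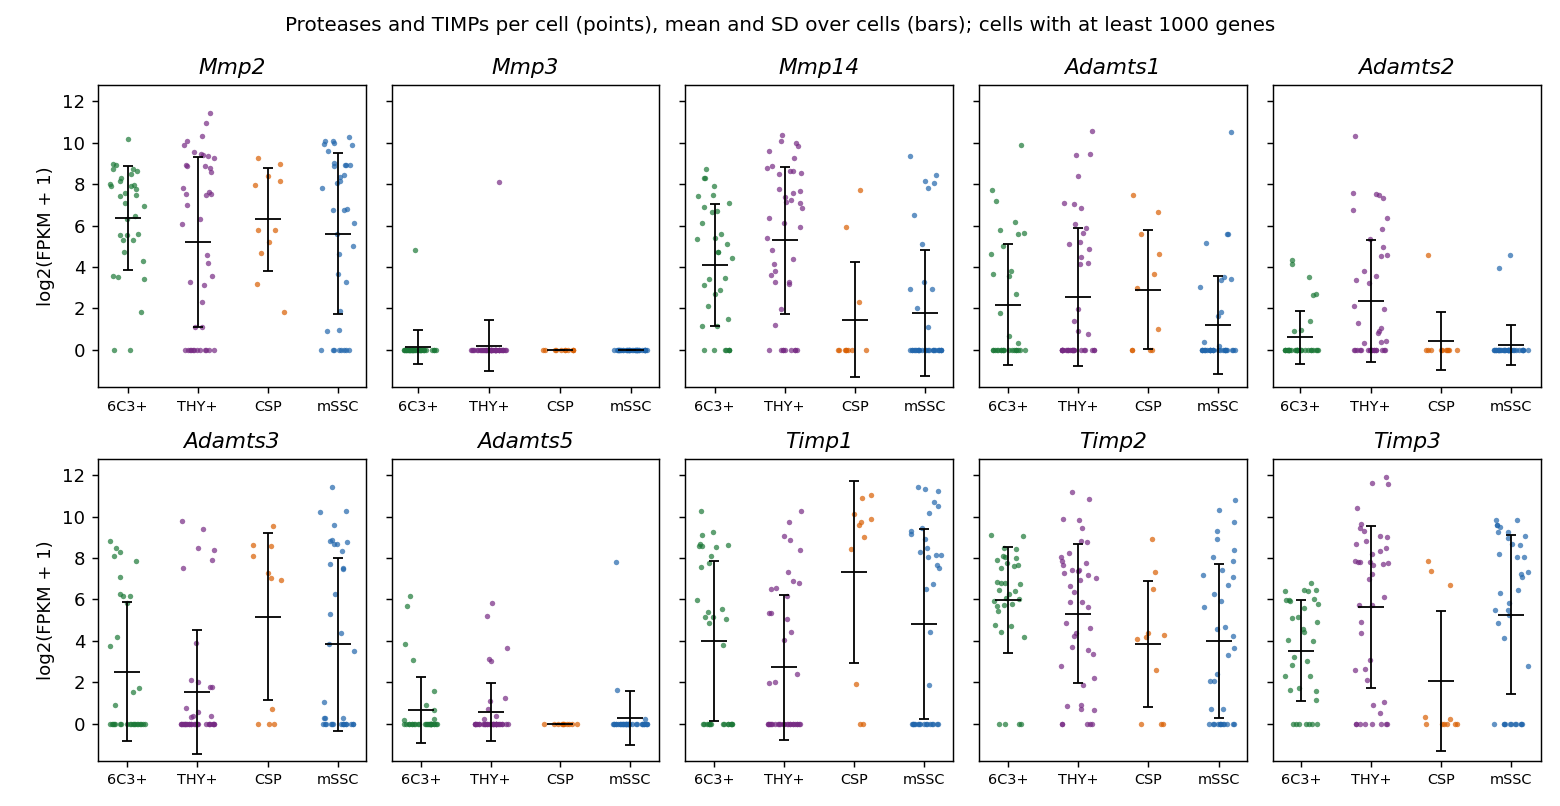
log2(FPKM + 1) of each gene (vertical axis) in each cell (points) of the 4 populations, with the mean and the SD over cells; cells without the transcript lie at 0. Timp1 has cells at 0 and cells above 8 in every population, with means of 4.0 in 6C3+, 2.73 in THY+, 7.33 in CSP and 4.81 in mSSC cells.

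Populations were compared by the difference of mean log2(FPKM + 1), which understates changes of low genes. A gene counts as higher or lower at a difference of at least 2, or 4-fold on this scale, among genes found in 10% or more of the cells of either population; this is a rule of size, not a test. The same differences were computed with each cell rescaled to 1000000 over genes, because the FPKM totals differed, and that shifted the median of all genes by unequal amounts. The medians as deposited and rescaled were 0.05 and 0.19 in CSP minus mSSC, 0.13 and 0.22 in THY+ minus mSSC, -0.13 and 0.25 in 6C3+ minus mSSC, and -0.25 and 0.04 in 6C3+ minus THY+. The comparisons against mSSC share the mSSC cells.

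In THY+ minus mSSC, Mmp14 and Adamts2 were higher and Adamts3 and Timp1 were lower. Of the 9 members counted, 2 were higher and 2 lower, against 1.7% of 8963 genes higher and 2.71% lower. Mmp14 averaged 5.29 in THY+ and 1.78 in mSSC cells, a difference of 3.51 (3.70 rescaled). Adamts2 averaged 2.37 in THY+ and 0.23 in mSSC cells, a difference of 2.14 (2.51 rescaled), and the intervals of the shares lay apart for both genes. Adamts3 averaged 1.52 in THY+ and 3.82 in mSSC cells, a difference of -2.30 (-2.10 rescaled), and Timp1 averaged 2.73 in THY+ and 4.81 in mSSC cells, a difference of -2.09 (-1.79 rescaled), with overlapping intervals for both. Timp2 (1.30), Adamts1 (1.35), Timp3 (0.38), Adamts5 (0.31) and Mmp2 (-0.39) stayed below the 4-fold rule as deposited. Timp2 passed it in cells with at least 2000 genes, at 2.01, and Mmp2 over all cells, at -2.30. With a pseudocount of 10, Mmp14 alone remained past 4-fold, at 2.02, and with all cells Mmp14 and Adamts2 fell short, at 1.46 and 1.29. Adamts3 fell short on the log2 of the mean (-1.95) and Timp1 on rescaling and in cells with at least 2000 genes (-1.86).

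In 6C3+ minus mSSC, Mmp14 was higher, and the rescaling decided which other members joined it. Of 9 members counted 1 was higher and 0 lower, against 0.682% of 8650 genes higher and 4.06% lower. Mmp14 averaged 4.08 in 6C3+ and 1.78 in mSSC cells, a difference of 2.30 (3.48 rescaled), with intervals of the shares apart. Timp2 averaged 5.97 in 6C3+ and 4.0 in mSSC cells, a difference of 1.97 (3.36 rescaled), and Mmp2 averaged 6.38 in 6C3+ and 5.62 in mSSC cells, a difference of 0.76 (2.26 rescaled), so that both passed 4-fold once rescaled. Timp3 (-1.74), Adamts3 (-1.32) and Timp1 (-0.81) were on the negative side as deposited, and at -0.40, -0.55 and 0.07 once rescaled. Mmp14 did not pass with a pseudocount of 10 (1.02) or on the log2 of the mean (0.46), and over all cells its difference was -0.06.

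In CSP minus mSSC the proteases did not pass 4-fold, and both members that did were inhibitors with opposite signs. Of 7 members counted 1 was higher and 1 lower, against 3.52% of 8230 genes higher and 1.8% lower. Timp1 averaged 7.33 in CSP and 4.81 in mSSC cells, a difference of 2.52 (3.05 rescaled). Timp3 averaged 2.05 in CSP and 5.26 in mSSC cells, a difference of -3.22 (-3.09 rescaled). The intervals of their shares overlapped, with 11 CSP cells. Adamts1 (1.71) and Adamts3 (1.34) followed, and both passed 4-fold in cells with at least 2000 genes, at 2.22 and 2.20. On the log2 of the mean these proteases were at -0.42 and -0.30, and over all cells at 0.03 and -1.57. Neither inhibitor passed with a pseudocount of 10, at 1.78 for Timp1 and -1.92 for Timp3; Timp1 was at 0.81 on the log2 of the mean and at -0.66 over all cells.

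In 6C3+ minus THY+ a single member passed. Of 9 members counted 0 were higher and 1 lower, against 0.202% of 8897 genes higher and 0.877% lower. Timp3 averaged 3.52 in 6C3+ and 5.65 in THY+ cells, a difference of -2.12. It was -1.04 rescaled, -1.84 with a pseudocount of 10 and -0.57 without the THY+ cells rich in pericyte transcripts described next. Adamts2 (-1.77; -1.83 rescaled), Timp1 (1.27; 1.86), Mmp14 (-1.21; -0.22) and Mmp2 (1.15; 2.30) did not pass as deposited, and Mmp2 passed once rescaled.

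**Figure D4:**
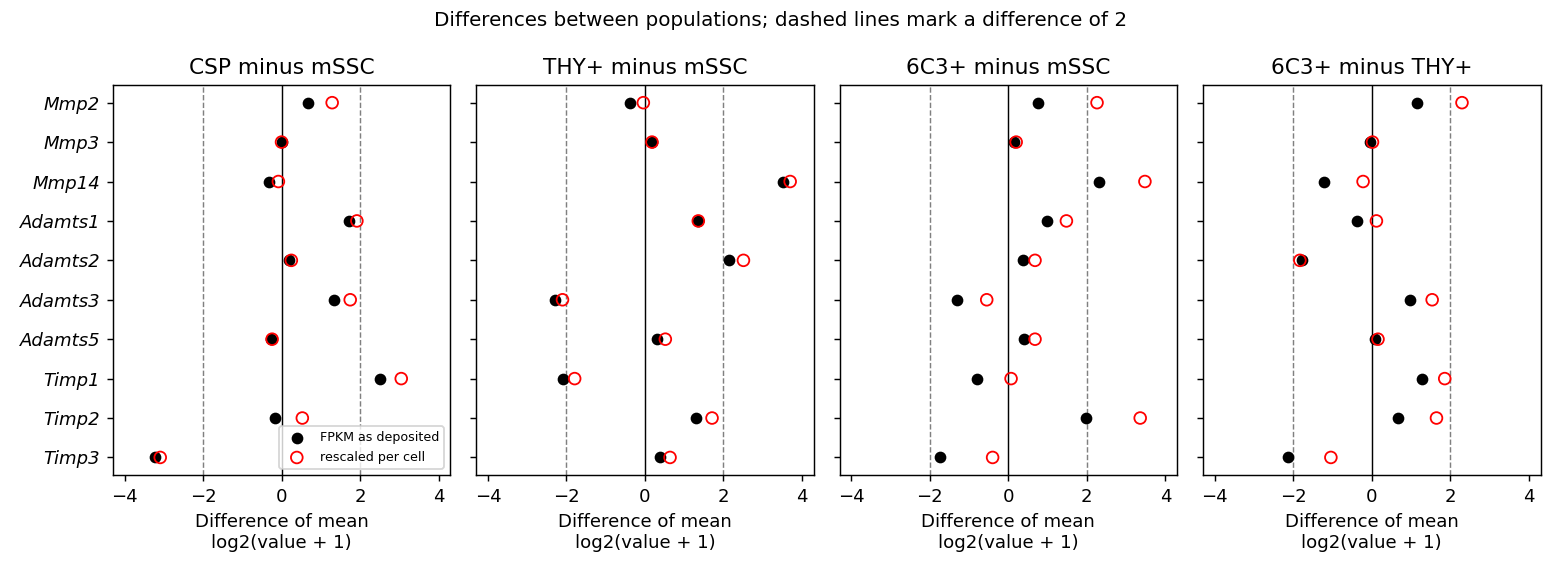
Difference of mean log2(value + 1) (horizontal axis) for each gene in the 4 comparisons, from FPKM as deposited (filled) and after rescaling each cell to the same total (open); dashed lines mark a difference of 2. Mmp14 lies right of the line in both comparisons with mSSC of THY+ and 6C3+ cells (3.51 and 2.30), and Timp3 lies left of it in CSP minus mSSC (-3.22) and 6C3+ minus THY+ (-2.12).

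Within THY+ cells, Timp3 went with pericyte and smooth muscle transcripts. Of 11 such genes, among them Rgs5, Pdgfrb and Acta2, 13 THY+ cells had at least 6 and 30 had at most 4. Timp3 was detected in 13 of 13 cells of the pericyte-rich group, between 29.1 and 3901 FPKM with a median of 640.4, against 20 of 30 of the others, between 0 and 522.9 with a median of 13.7. Most values of the pericyte-rich cells lay above the highest of the others. Mmp14 was detected in 13 of 13 cells (median 149.8) against 21 of 30 (median 23.8), and Adamts2 in 9 of 13 against 11 of 30. Mmp2 showed the reverse order, with 6 of 13 cells and a median of 0 in the pericyte-rich group against 25 of 30 and a median of 181.0 in the others. Adamts3 was detected in 2 of 13 against 9 of 30, and Timp2 in 9 of 13 against 25 of 30. The intervals of each of these shares overlapped. For Timp2 the median was the higher one in the pericyte-rich cells, at 99.8 against 57.1. Gene numbers were a little higher in the pericyte-rich cells (median 3193 against 2800), and their part in these differences was not tested. Without the pericyte-rich cells, THY+ minus mSSC gave 2.90 for Mmp14 and -2.26 for Timp1, while Adamts2 at 1.87 and Adamts3 at -1.79 no longer passed 4-fold. The signs of Timp3 and Mmp2, both below the rule, turned, to -1.17 without these cells against 0.38 with all THY+ cells for Timp3, and to 0.40 against -0.39 for Mmp2.

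Within 6C3+ cells the detection of a collagen IX transcript, a cartilage collagen, went with Mmp2 and Adamts3. Mmp2 was detected in 20 of 20 cells with collagen IX, with a median of 240.8 FPKM, against 12 of 14 cells without it, with a median of 31.7. Adamts3 was detected in 11 of 20 (median 36.1) against 3 of 14 (median 0). Timp2 was detected in 16 of 20 (median 97.8) against 14 of 14 (median 70.8) and Mmp14 in 14 of 20 (median 16.1) against 13 of 14 (median 23.4). For Timp2 the share and the median as deposited had opposite orders. Its rescaled medians, 293.8 with collagen IX against 476.8 without it, had the order of the shares. The intervals of each of these shares overlapped. In mSSC cells with Wif1, a secreted Wnt inhibitor, Timp1 was detected in 11 of 15 (73.3%, 44.9 to 92.2) against 10 of 22 cells without it (45.5%, 24.4 to 67.8). Timp2 was detected in 12 of 15 with Wif1 against 11 of 22 without it, Mmp2 in 9 of 15 against 18 of 22, and Adamts3 in 8 of 15 against 11 of 22. The intervals of the shares overlapped for each of these 4 genes. For Mmp2 and Adamts3 the medians had the opposite order to the shares. With Wif1 they were 222.9 and 1.04 FPKM, against 107.9 and 5.28 without it.

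Most cells carried proteases and inhibitors together. The median number of members detected per cell was 5 in 6C3+ (3 to 8), 5 in THY+ (1 to 8), 4 in CSP (2 to 7) and 4 in mSSC cells (1 to 7). At least 1 TIMP was detected in 34 of 34 6C3+, 40 of 43 THY+, 11 of 11 CSP and 34 of 37 mSSC cells, and all 3 in 13 of 34, 13 of 43, 2 of 11 and 12 of 37. No protease was detected in 0 of 34 6C3+, 1 of 43 THY+, 0 of 11 CSP and 4 of 37 mSSC cells. The median share of TIMP FPKM in the summed FPKM of all 10 genes was 52.4% in 6C3+, 53.5% in THY+, 77.9% in CSP and 62.5% in mSSC cells, and single cells ran from 1.34% to 97.5%, 0% to 98.7%, 11.8% to 96.4% and 0% to 100%. The summed TIMP transcripts exceeded the summed protease transcripts in 19 of 34, 22 of 43, 9 of 11 and 21 of 37 cells. Timp1 with Timp2 but without Timp3 was the most frequent combination of inhibitors in CSP cells (5 of 11, 16.7 to 76.6%). Its interval overlapped those of the same combination in 6C3+ (3.3 to 27.5%), THY+ (1.46 to 19.1%) and mSSC cells (1.7 to 21.9%). Timp2 with Timp3 but without Timp1 was the most frequent in THY+ cells (15 of 43, against 13 with all 3). All 3 were the most frequent in 6C3+ (13 of 34, against 10 with Timp2 and Timp3 only) and mSSC cells (12 of 37).

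Correlations between members over the 125 cells, on log2(FPKM + 1) centred on each population's mean, were weak. The 45 pairs ran from -0.13 to 0.29 with a median of 0.05. The highest were Mmp14 with Timp2 (0.29) and Mmp14 with Adamts1 (0.27), members that also correlated with the number of genes detected per cell (0.48 for Mmp14, 0.34 for Timp2 and 0.32 for Adamts1). Among 5021 genes found in 20% or more of the 125 cells, those most like Mmp14 were S100a11 (0.52), Tmsb4x (0.51) and Selm (0.50), and those most like Timp3 were Actb (0.50), Ywhaz (0.46) and Cd81 (0.45). These values were unequal between populations: within 6C3+, THY+, CSP and mSSC cells Timp3 correlated with Actb at 0.11, 0.69, 0.33 and 0.39, and Mmp14 with S100a11 at 0.58, 0.65, -0.40 and 0.39. Adamts3 was most like Ldlrad3 (0.44) and the cartilage matrix genes Comp (0.43) and Hapln1 (0.43). Adamts2 was most like Hdgfrp3 (0.48), Fam208a (0.41) and the limb mesenchyme transcription factor Prrx1 (0.41). Within 6C3+, THY+, CSP and mSSC cells its correlation with Hdgfrp3 was 0.11, 0.50, -0.13 and 0.94. The CSP and mSSC values rest on 1 of 11 and 2 of 37 cells with Adamts2. Mmp2 was most like Capn6 (0.44), Itm2a (0.41) and the imprinted noncoding RNA H19 (0.40), and Timp2 was most like Atp5g1 (0.46), Rhoa (0.40) and Ifitm2 (0.40). For Adamts1 the nearest were Myl6 (0.42), Cfl1 (0.39) and Cyb5r3 (0.39), for Adamts5 Pxdn (0.39), Sema3c (0.38) and Hdgfrp3 (0.37), and for Timp1 Dctn2 (0.35), M6pr (0.33) and Zmpste24 (0.32). Mmp3, present in 2 cells, cannot be read this way, and the cells share depth and plate within a population. Adamts5 was detected in 11.2% of the 125 cells. Its values within mSSC cells, 0.78 with Pxdn, 0.60 with Sema3c and 0.81 with Hdgfrp3, rest on 2 of 37 cells with Adamts5.

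Of 20 other MMP genes 12 were detected in 0 of the 125 cells, among them the collagenase Mmp13 and the gelatinase Mmp9. The share of all genes detected in no cell is not given, for this list or the others. The membrane-type enzyme Mmp16 was detected in 15 of 34 6C3+, 16 of 43 THY+, 7 of 11 CSP and 21 of 37 mSSC cells. Its share was thus higher in CSP and mSSC cells, though no interval is given for these shares. The differences of Mmp16 were -1.64 in THY+ minus mSSC and -1.50 in 6C3+ minus mSSC (-1.48 and -0.83 rescaled). Of 14 other ADAMTS genes 3 were detected in no cell and none of those counted passed 4-fold in any comparison, and the aggrecanase Adamts4 was detected in 2 of 34 6C3+, 5 of 43 THY+, 0 of 11 CSP and 0 of 37 mSSC cells. Of 13 ADAMTS-like and ADAM genes none passed as deposited; the largest differences were those of Adamtsl3, at 1.90 in THY+ minus mSSC and 1.79 in 6C3+ minus mSSC (2.06 and 2.67 rescaled). The fourth TIMP gene, Timp4, was detected in 0 of 34, 1 of 43, 0 of 11 and 3 of 37 cells.

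Of the other inhibitors and clearance factors, Thbs2 was higher and Thbs1 lower in THY+ and in 6C3+ cells than in mSSC cells. In THY+ minus mSSC 3 of 10 counted were higher and 1 lower, with Thbs2, a thrombospondin that takes part in the clearance of Mmp2, at 3.71, the serine protease inhibitor Serpine2 at 2.72 and Thbs1 at -4.05. In 6C3+ minus mSSC 1 of 10 was higher (Thbs2, 2.08) and 1 lower (Thbs1, -4.10), and A2m, a broad protease trap, was detected in 0 of 34 6C3+ and 0 of 43 THY+ cells against 12 of 37 mSSC cells, with a difference of -1.85 in both comparisons. In CSP minus mSSC 0 of 10 passed, and in 6C3+ minus THY+ 1 of 9 was lower (Serpine2, -2.04; -1.47 rescaled). Of the activators and other matrix proteases, 1 of 14 was higher in CSP minus mSSC, Pcolce2 at 3.19, and in THY+ minus mSSC 1 of 15 was higher, Pcolce at 2.72, and 1 lower, the lysosomal protease Ctsd at -2.20 (-1.91 rescaled). Pcolce and Pcolce2 enhance the removal of the carboxy-terminal procollagen propeptide. None of 15 passed in 6C3+ minus mSSC or 6C3+ minus THY+, where Pcolce was at 1.44 and -1.28 (2.55 and -0.66 rescaled) and the membrane protease Fap at 1.21 and 1.22 (2.16 and 2.04 rescaled). Ctsd was at 1.48 in 6C3+ minus THY+ and at 2.22 once rescaled. Among 14 matrix substrates, 5 of 12 counted were higher and 4 lower in THY+ minus mSSC, led by Col2a1 at -7.78, Col1a1 at 7.16 and Col4a1 at 5.83. In 6C3+ minus mSSC 3 of 12 were higher and 3 lower, with Col1a1 at 5.43, Col2a1 at -4.95 and Acan at -4.06. In CSP minus mSSC 1 of 11 was higher, Comp at 2.36, and 3 lower, with Col3a1 at -3.77 and Col1a1 at -2.92.

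Cell type transcripts moved with these differences. All 11 measured chondrocyte genes were lower in THY+ minus mSSC (median difference -5.17) and in 6C3+ minus mSSC (-4.95), and 2 of 11 were higher in CSP minus mSSC (median 0.60). The summed FPKM of the chondrocyte list had medians of 2444 in 6C3+, 522.0 in THY+, 37507 in CSP and 40090 in mSSC cells. Of 10 fibroblast and tendon genes, 5 were higher in THY+ minus mSSC and 5 of 9 counted in 6C3+ minus mSSC, with Postn at 7.04 and 3.94. The small proteoglycan genes Dcn (-3.35) and Lum (-2.50) of that list were lower in THY+ minus mSSC, and Lum (-2.13; -1.0 rescaled) was lower in 6C3+ minus mSSC. Of 10 counted pericyte and smooth muscle genes, THY+ minus mSSC had 6 higher and 6C3+ minus THY+ had 6 lower, with Rgs5 at 3.70 and -3.31. Cspg4 was lower, at -2.41 in THY+ minus mSSC and -3.23 in 6C3+ minus mSSC. The part of these cell type transcripts in the differences of Mmp14, Adamts2, Adamts3 and the TIMPs was not tested beyond the split of the THY+ cells above. In the cells left out for having fewer than 1000 genes, Mmp2 was detected in 7 of 58 6C3+, 3 of 29 THY+ and 4 of 15 CSP cells, Mmp14 in 9 of 58, 2 of 29 and 2 of 15, and Timp2 in 11 of 58, 3 of 29 and 1 of 15; no mSSC cell was in that range.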

How the data were processed

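Values were FPKM per gene and cell as deposited by the authors, in 1 table of 24388 genes and 92 spike-ins; per the submitters' processing notes the build was mm10 and SAMtools was used, while no aligner or FPKM program is named there. Depth in reads is unknown, which is why no interval on reads is given. Each column repeats the title of 1 cell; 0 columns were left unmatched and 0 were identical. Each of 4 comparisons, set out with the results, was taken as a difference of mean log2(FPKM + 1) over all genes. Genes were named by rule: the 10 members, up to 3 genes with the largest difference from each list and comparison, and the 3 genes with the highest correlation to each member. Other list genes named (Timp4, Adamts4, Mmp9, Mmp13, Acan, Vcan, Esam, the sort antigens) were picked with their values in view. The members, lists and splits of cells were chosen with earlier results of these data known. The choices varied were the pseudocount (0.1 and 10), FPKM rescaled to sum to 1000000 in each cell, all cells, the log2 of mean FPKM, cells with at least 2000 genes, no filter on low values, THY+ cells with at most 4 pericyte genes, and detection above 0 or at 10. Coordinates are from GENCODE for GRCm38, the mm10 assembly, and promoters from RefSeq. The tools were scipy 1.17.1, pandas 2.3.3, numpy 2.4.6 and matplotlib 3.10.9 under Python 3.11.15. The comparison was run on mSSC cells with planted changes, which checks its arithmetic only.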

Additional observations from a re-analysis of the deposited data

How the results depend on the processing

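Leaving out the filter on low values cannot alter a difference, so its 40 differences were the same by construction. Of the differences of the 10 genes under all alternatives, these 40 included, 225 kept their direction and their side of the 4-fold rule. A further 33 changed sign while staying below it, 20 reached 4-fold newly in the same direction and 18 no longer reached it. These counts take every gene whatever its share of cells, so those newly at 4-fold include genes found in under 10% of the cells of both populations, on the log2 of the mean: Adamts5 in CSP minus mSSC (-2.82) and Mmp3 in THY+ minus mSSC (2.87) and 6C3+ minus THY+ (-2.02). A further 4, each over all cells, changed sign with a value past the rule before or after: Timp1 (-0.66) and Mmp2 (-2.51) in CSP minus mSSC, and Mmp14 (-0.06) and Mmp2 (-3.09) in 6C3+ minus mSSC. All cells include the cells under 1000 genes, which are 58 of 92 6C3+ and 0 of 37 mSSC cells. With a pseudocount of 10 the members past 4-fold were 0 in CSP minus mSSC, 1 in THY+ minus mSSC, 0 in 6C3+ minus mSSC and 0 in 6C3+ minus THY+; with a pseudocount of 0.1 they were 2 in 6C3+ minus mSSC and 2 in 6C3+ minus THY+. On the log2 of the mean they were 1 in CSP minus mSSC (Timp3), 2 in 6C3+ minus mSSC (Adamts3 and Timp3, both lower) and 2 in 6C3+ minus THY+ (Adamts2 and Timp3). Rescaling gave 3 in 6C3+ minus mSSC, all cells 4 in 6C3+ minus mSSC (each lower), cells with at least 2000 genes 4 in CSP minus mSSC, and leaving out the pericyte-rich THY+ cells 2 in THY+ minus mSSC and 0 in 6C3+ minus THY+. Over all genes, those higher and lower in CSP minus mSSC numbered 875 and 360 with a pseudocount of 0.1, 44 and 31 with 10, 485 and 116 rescaled, 551 and 2058 on the log2 of the mean, 8 and 1159 over all cells, and 461 and 125 with at least 2000 genes, against 290 and 148 as reported. In THY+ minus mSSC they numbered 543 and 448, 36 and 92, 214 and 215, 1280 and 835, 21 and 832, and 259 and 210 under the same alternatives, against 152 and 243. In 6C3+ minus mSSC they numbered 263 and 590, 7 and 146, 246 and 126, 422 and 2205, 2 and 1428, and 82 and 364, against 59 and 351. In 6C3+ minus THY+ they numbered 85 and 312, 2 and 14, 104 and 39, 202 and 2339, 0 and 199, and 18 and 201, against 18 and 78, and 18 and 49 without the pericyte-rich THY+ cells. Rescaling thus moved the higher share of all genes past 4-fold to 80.7% in CSP minus mSSC, 49.9% in THY+ minus mSSC, 66.1% in 6C3+ minus mSSC and 72.7% in 6C3+ minus THY+, against 66.2%, 38.5%, 14.4% and 18.8% as deposited. Over all cells the members detected in at least 50% of cells numbered 0 in 6C3+ and 2 in CSP. Shares of cells moved beyond their interval in 24 instances, 19 of them over all cells, and stayed within it in 136. The cause of these shifts was not tested. No paired analysis was possible because each population is 1 sample without replicate numbers. Depth in reads is unknown, a gene at 0 in a cell may have been missed, and 11 CSP cells give wide intervals.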
